A study of Mus musculus with 12 samples.

Results

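The genes described here are 41 interferon-stimulated genes, read across 12 expression arrays of mouse embryonic fibroblasts. They were taken by symbol from the array's probe annotation, keeping probe sets that name exactly 1 gene and, where a gene had several, the probe set with the highest mean over all samples. Of the 41 genes 40 were measured, among 19938 genes on the array. The exception, Igtp, had a single probe set, which names several genes, and it was not analysed here. The fibroblasts came from embryos at embryonic day 14 and carry the strain label C57BL6. They were either D1D2KO, deficient in DGAT1 and DGAT2, which catalyse the last step of triacylglycerol synthesis, or wild type (WT). Each genotype was profiled after conversion to adipocytes and undifferentiated, with 3 samples in each of the 4 groups. Differentiated cells had been taken to confluency and given dexamethasone (1 µM), isobutylmethylxanthine (500 µM), insulin (5 µg/ml) and troglitazone (15 µM), then insulin and troglitazone alone, then plain medium until harvest. Undifferentiated cells received none of these agents. The labels call the samples biological replicates, but which embryo or culture gave each one is not stated, so a p-value here reflects only how far these samples spread, which may be technical.

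Interferons are secreted proteins that cells release when they detect foreign nucleic acid. Type I interferons bind a receptor of 2 chains, and its kinases activate a transcription factor complex, with STAT2 and IRF9 among its subunits, that binds interferon-stimulated response elements in the promoters of target genes. Interferon gamma acts through another receptor and leads to transcription from gamma-activated sites. The induced genes encode sensors, transcription factors and effectors that block viral replication, and many keep a low basal expression in resting fibroblasts.

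Values are log2 array signals as the authors deposited them, so a difference of 1 is a doubling. Column medians lay between 5.61 and 5.69 and lower quartiles between 4.10 and 4.26. Mx1 stayed under the lower quartile on every array, where signal cannot be told from background, because detection calls were not used here. Dgat1 and Dgat2 were read as a check of the genotype labels. Dgat1 read 8.26, 8.03 and 7.75 in differentiated D1D2KO cells, against 9.36, 9.33 and 9.53 in differentiated WT cells. Dgat2 read 8.37, 8.62 and 8.66 in differentiated D1D2KO cells, against 10.28, 9.86 and 10.53 in differentiated WT cells. Both were lower in undifferentiated D1D2KO cells as well, by −1.34 for Dgat1 and −0.47 for Dgat2, and neither set of samples overlapped with WT. The exons that these probe sets cover are not stated, so the reduced but present signal does not measure how much intact transcript remained. All 11 adipocyte markers rose with differentiation in each genotype, with median rises of 4.20 in D1D2KO and 3.97 in WT cells.

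Promoter windows of RefSeq, on build GRCm38.p6, run from 250 bases before to 50 bases after a gene's start. They were available for 31 of the 40 measured genes, and Dhx58, Zbp1, Mx1, Mx2, Ifi27, Usp18, Parp9, Parp14 and Rtp4 had no entry in the table. The core of the interferon-stimulated response element, GAAA and GAAA with any 2 bases between them on either strand, was found in 12 of the 31 (38.7%), against 1079 of 27025 genes of the whole table (3.99%). The gamma-activated site core, TTCNNNGAA, which is its own reverse complement, was found in 8 of the 31 (25.8%), against 2582 of the 27025 (9.55%). Bst2, Eif2ak2, Ifitm3 and Oas1a held both motifs, and the 2 overlapped in Bst2 and Ifitm3. The windows below are a selection from genes with large differences in the results, 6 with a response element core and Lgals3bp without one. Oasl2, Irf7, Herc6, Samd9l, Ifit2 and, by a narrow margin, Xaf1 differed more than Bst2 between the differentiated genotypes. Their windows held no core and are not shown, so the selection does not reflect how common the core is. Each is written 5′ to 3′ on the gene's strand, and capitals mark the response element core on either strand, with overlapping matches run together.

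Ifit1 (chr19:34640639-34640938, plus strand): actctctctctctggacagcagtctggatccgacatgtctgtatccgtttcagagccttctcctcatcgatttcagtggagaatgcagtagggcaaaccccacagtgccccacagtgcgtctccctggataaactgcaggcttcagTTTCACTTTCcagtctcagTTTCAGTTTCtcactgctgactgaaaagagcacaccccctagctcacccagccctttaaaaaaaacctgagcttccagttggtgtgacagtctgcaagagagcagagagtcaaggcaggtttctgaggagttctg
Ifit3 (chr19:34583279-34583578, plus strand): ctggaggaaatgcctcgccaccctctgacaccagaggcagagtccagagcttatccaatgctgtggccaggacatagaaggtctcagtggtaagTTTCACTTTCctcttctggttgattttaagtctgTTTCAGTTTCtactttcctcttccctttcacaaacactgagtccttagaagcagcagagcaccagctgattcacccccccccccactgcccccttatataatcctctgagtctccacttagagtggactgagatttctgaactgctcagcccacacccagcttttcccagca
Irgm1 (chr11:48871371-48871670, minus strand): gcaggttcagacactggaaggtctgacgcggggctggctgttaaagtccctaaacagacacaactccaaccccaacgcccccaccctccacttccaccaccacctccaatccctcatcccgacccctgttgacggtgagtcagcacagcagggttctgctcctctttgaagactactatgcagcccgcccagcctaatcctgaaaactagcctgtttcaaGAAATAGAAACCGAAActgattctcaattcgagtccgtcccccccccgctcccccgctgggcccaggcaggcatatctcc
Gbp3 (chr3:142559794-142560093, plus strand): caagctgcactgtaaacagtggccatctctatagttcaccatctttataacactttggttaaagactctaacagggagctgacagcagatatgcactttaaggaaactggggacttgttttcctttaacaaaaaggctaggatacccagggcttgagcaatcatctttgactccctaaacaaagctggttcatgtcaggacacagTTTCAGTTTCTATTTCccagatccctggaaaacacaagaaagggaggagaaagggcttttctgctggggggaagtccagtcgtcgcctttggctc
Ifih1 (chr2:62646206-62646505, minus strand): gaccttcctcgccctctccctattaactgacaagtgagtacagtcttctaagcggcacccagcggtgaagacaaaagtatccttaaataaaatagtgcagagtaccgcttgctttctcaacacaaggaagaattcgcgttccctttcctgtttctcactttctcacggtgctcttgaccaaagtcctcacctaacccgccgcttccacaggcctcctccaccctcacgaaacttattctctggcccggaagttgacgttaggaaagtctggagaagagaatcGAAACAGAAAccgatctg
Bst2 (chr8:71537423-71537722, minus strand): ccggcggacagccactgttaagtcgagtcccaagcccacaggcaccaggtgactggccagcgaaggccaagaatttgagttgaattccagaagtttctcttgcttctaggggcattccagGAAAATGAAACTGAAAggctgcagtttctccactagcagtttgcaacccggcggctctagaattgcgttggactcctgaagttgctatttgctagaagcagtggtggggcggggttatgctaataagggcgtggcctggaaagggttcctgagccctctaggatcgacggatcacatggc
Lgals3bp (chr11:118401910-118402209, minus strand): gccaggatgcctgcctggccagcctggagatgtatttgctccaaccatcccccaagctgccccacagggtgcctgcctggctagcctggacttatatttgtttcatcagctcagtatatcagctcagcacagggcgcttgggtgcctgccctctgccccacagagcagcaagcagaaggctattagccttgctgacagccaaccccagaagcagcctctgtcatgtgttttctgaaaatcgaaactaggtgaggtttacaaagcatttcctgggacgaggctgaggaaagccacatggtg

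Ifit1 and Ifit3 each hold 2 separate matches, and the matches of Irgm1, Gbp3 and Bst2 overlap each other. In Ifih1 the match lies after the start of the gene. A match is a run of letters in the window and was not tested for binding.

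Differentiated D1D2KO cells had lower signals of most of these genes than differentiated WT cells. Of the 40 genes 33 were lower and 0 were higher at a limma adjusted p under 0.05, where 7.42% of all 19938 genes were lower and 6.25% higher. The genes were chosen with earlier results of these data known, so the comparison of these shares is a description only. The median difference, D1D2KO minus WT, was −0.53 log2 over the 40 genes and 0.03 over all genes. The 3 D1D2KO samples were all below the 3 WT samples for 34 of the 40, against 14.2% of all genes. The differences ranged from −1.31 for Ifit1 to 0.03 for Ifi27, and 39 of the 40 were below 0, against 44.8% of all genes. These are bulk samples, so fewer cells of a type and less RNA per cell cannot be told apart. By contrast, undifferentiated D1D2KO and WT cells showed 0 higher and 0 lower calls among the 40, where 4.4% of all genes were higher and 3.62% lower.

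**Figure D1:**
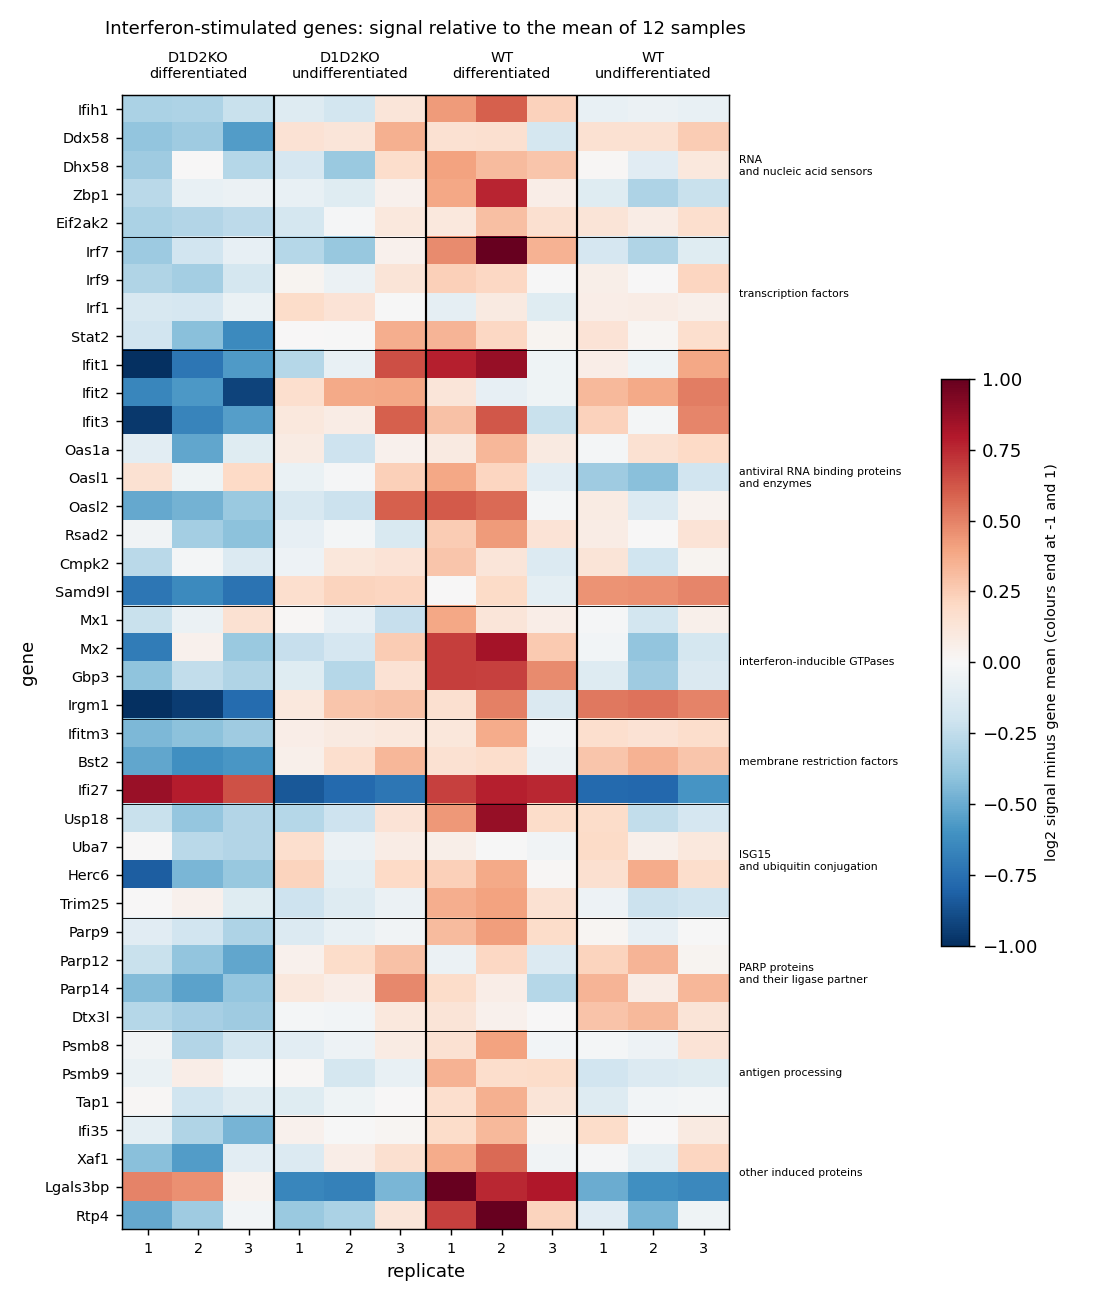
Log2 signal of each of the 40 genes in each of the 12 samples, minus that gene's mean over all samples, with genes grouped by role and samples by group. Differentiated D1D2KO cells are blue for most genes, differentiated WT cells are red for most genes, and Ifi27 and Lgals3bp follow the differentiated state.

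Among the nucleic acid sensors, all 5 were lower in differentiated D1D2KO cells than in differentiated WT cells. Ifih1, which encodes the long double-stranded RNA sensor MDA5, read 6.64, 6.65 and 6.74 in replicates 1, 2 and 3 of differentiated D1D2KO cells, against 7.39, 7.55 and 7.19 in differentiated WT cells. Those groups did not overlap, and Ifih1 was 1.63-fold lower in D1D2KO (log2 difference −0.70, SE 0.10, adjusted p = 0.000238). In undifferentiated cells Ifih1 read 6.83, 6.77 and 7.08 in D1D2KO, against 6.89, 6.90 and 6.88 in WT, and these groups overlapped around one level. Differentiation raised Ifih1 by 0.49 in WT cells (adjusted p = 0.000877), while its difference of −0.22 in D1D2KO cells did not pass the test (adjusted p = 0.101). The other sensors differed between the differentiated genotypes by −0.54 for Dhx58 and Zbp1 and by −0.48 for Ddx58 and Eif2ak2. Ddx58 encodes RIG-I, which detects viral RNA ends, Dhx58 its relative LGP2, Zbp1 a sensor of Z-form nucleic acid, and Eif2ak2 the RNA-activated kinase PKR that halts translation. With differentiation Zbp1 rose by 0.62 in WT cells, whereas Ddx58 fell by 0.65 and Eif2ak2 by 0.26 in D1D2KO cells. The Zbp1 call between differentiated genotypes ended without replicate 1 of the D1D2KO cells (−0.47, adjusted p = 0.0532) or replicate 2 of the WT cells (−0.36, adjusted p = 0.0605). Eif2ak2 lost its call in D1D2KO differentiation when replicate 1 or 2 of the differentiated or replicate 2 or 3 of the undifferentiated D1D2KO cells was left out (differences −0.26 to −0.20, adjusted p 0.0531 to 0.121), and with arrays centred on their medians or quantile normalized (adjusted p = 0.0518 and 0.0546).

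Of the 4 transcription factors 3 were lower in differentiated D1D2KO cells. Irf7, the factor that amplifies transcription of interferon alpha genes, read 6.09, 6.26 and 6.37 in differentiated D1D2KO cells, against 6.93, 7.46 and 6.80 in differentiated WT cells. Its 3 WT values were all above the D1D2KO values, and Irf7 was 1.77-fold lower in D1D2KO (−0.82, SE 0.14, adjusted p = 0.00162). Undifferentiated cells had Irf7 at 6.17, 6.07 and 6.50 in D1D2KO, against 6.29, 6.15 and 6.33 in WT. Irf7 rose by 0.81 with differentiation in WT cells (adjusted p = 0.000293) and differed by −0.0046 in D1D2KO cells. Stat2 and Irf9, subunits of the complex that type I interferon activates, were lower by −0.61 and −0.42 in differentiated D1D2KO cells, and with differentiation Stat2 fell by 0.53 and Irf9 by 0.30 in D1D2KO cells. Irf1, a factor induced mainly by interferon gamma, did not differ between the genotypes by the test in either state (−0.09 in differentiated and 0.04 in undifferentiated cells). It fell by 0.24 with differentiation in D1D2KO cells, a call that ended without replicate 1 or 2 of either D1D2KO group (adjusted p 0.0763 to 0.125) and with the replicate number as a block in a fit of the D1D2KO samples (adjusted p = 0.0511). It also ended with each array centred on its median (−0.20, adjusted p = 0.0681) and with the mean of the probe sets of Irf1 (−0.14, adjusted p = 0.190). The Irf9 call in D1D2KO differentiation ended without replicate 2 of the differentiated (−0.27, adjusted p = 0.0596) or replicate 3 of the undifferentiated D1D2KO cells (−0.26, adjusted p = 0.0712).

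The antiviral RNA-binding proteins and enzymes held the largest genotype difference, and 7 of 9 were lower in differentiated D1D2KO cells. Ifit1, whose protein binds viral RNA ends and blocks their translation, read 5.45, 5.75 and 5.91 in differentiated D1D2KO cells, against 7.26, 7.35 and 6.43 in differentiated WT cells. The D1D2KO values were all below the WT values although WT replicate 3 stood apart from the other 2, and Ifit1 was 2.48-fold lower in D1D2KO (−1.31, SE 0.23, 95% interval −1.80 to −0.82, adjusted p = 0.00164). In undifferentiated cells Ifit1 read 6.19, 6.40 and 7.12 in D1D2KO, against 6.54, 6.43 and 6.86 in WT, so both groups spread widely and overlapped. Ifit1 fell by 0.87 with differentiation in D1D2KO cells (adjusted p = 0.00635), and its difference of 0.40 in WT cells did not pass the test (adjusted p = 0.206).

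Ifit3, a binding partner of Ifit1, read 5.08, 5.39 and 5.50 in differentiated D1D2KO cells, against 6.34, 6.67 and 5.83 in differentiated WT cells. It was 1.94-fold lower in D1D2KO (−0.96, SE 0.19, adjusted p = 0.00372), again with WT replicate 3 nearest to the D1D2KO cells. Undifferentiated cells read 6.15, 6.12 and 6.65 in D1D2KO, against 6.28, 6.03 and 6.53 in WT. Within D1D2KO, Ifit3 fell by 0.99 with differentiation, to values that did not overlap with those of undifferentiated cells, while WT cells showed a difference of −8e-04 (adjusted p = 0.998). Ifit2, another RNA-binding member of the family, read 5.98, 6.06 and 5.71 in differentiated D1D2KO cells, against 6.76, 6.55 and 6.59 in differentiated WT cells. In undifferentiated cells it read 6.80, 7.02 and 7.03 in D1D2KO, against 6.96, 7.01 and 7.15 in WT. Unlike Ifit1 and Ifit3, Ifit2 passed the test in both genotypes with differentiation, and it fell by 1.03 in D1D2KO cells (adjusted p = 3.28e-07) and by 0.41 in WT cells (adjusted p = 0.00496).

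Samd9l, a restraint on viral replication and cell growth, had the same direction in all comparisons. It fell by 0.90 with differentiation in D1D2KO and by 0.43 in WT cells, and was lower by −0.73 in differentiated D1D2KO cells (adjusted p = 2.54e-05). Oasl2, an oligoadenylate synthetase in the mouse, was lower by −0.84, Rsad2, which makes a chain-terminating nucleotide, by −0.53, and Oas1a, another synthetase, by −0.42 in differentiated D1D2KO cells. Oasl1, which in the mouse restrains Irf7 translation, rose by 0.49 with differentiation in WT cells and differed by −0.06 between differentiated D1D2KO and WT cells. Cmpk2, a mitochondrial nucleotide kinase, passed the test in no comparison, with differences from −0.31 to 0.10. Its signals were low, and replicates 1 and 3 of differentiated D1D2KO cells lay under the lower quartile of their arrays. The Oas1a call ended without replicate 2 of the differentiated D1D2KO cells (−0.29, adjusted p = 0.109) or replicate 2 of the differentiated WT cells (−0.34, adjusted p = 0.118). In D1D2KO cells Oasl2 fell by 0.53 with differentiation, a call that ended without any 1 of the 3 differentiated D1D2KO samples (adjusted p 0.0516 to 0.0831) and that dropped to −0.27 without replicate 3 of the undifferentiated D1D2KO cells (adjusted p = 0.200).

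**Figure D2:**
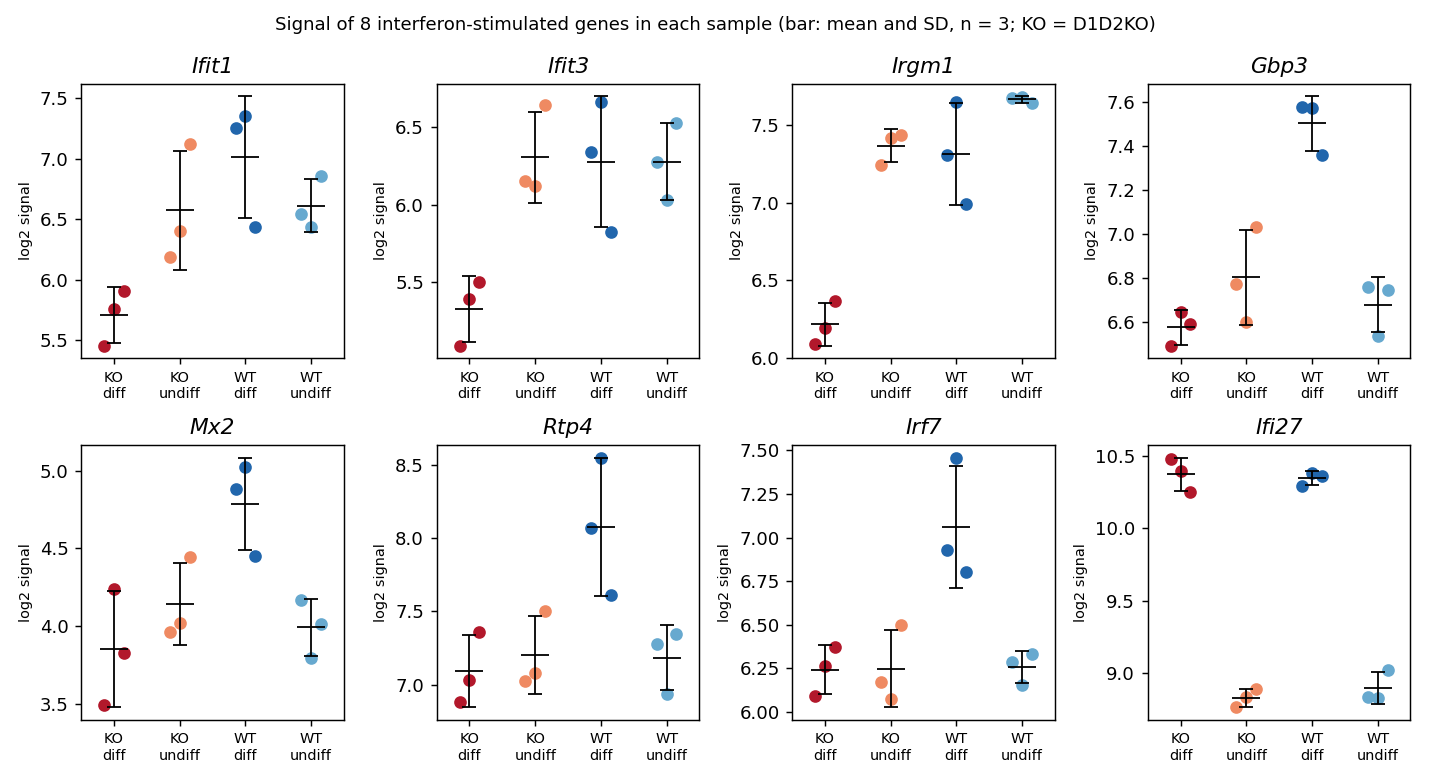
Log2 signal of 8 of the genes in every sample, with points for replicates 1 to 3 from left to right and the mean and SD of each group in black. For Ifit1, Ifit3, Irgm1, Gbp3, Mx2, Rtp4 and Irf7 the 3 differentiated D1D2KO samples lie below the 3 differentiated WT samples. By contrast, Ifi27 is high in both differentiated groups.

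Of the interferon-inducible GTPases 3 of 4 measured were lower in differentiated D1D2KO cells. Irgm1, a regulator of immunity-related GTPases that attack pathogen vacuoles, read 6.09, 6.19 and 6.37 in differentiated D1D2KO cells, against 7.30, 7.64 and 6.99 in differentiated WT cells. The groups were well apart, and Irgm1 was 2.14-fold lower in D1D2KO (−1.09, SE 0.13, adjusted p = 3.13e-05). Undifferentiated cells read 7.24, 7.42 and 7.44 in D1D2KO, against 7.67, 7.68 and 7.64 in WT, without overlap, but that difference of −0.30 did not pass the test over all genes (adjusted p = 0.139). Irgm1 fell by 1.15 with differentiation in D1D2KO cells (adjusted p = 1.09e-06) and by 0.35 in WT cells (adjusted p = 0.0412). The WT call ended without replicate 1 or 3 of the differentiated WT cells or any 1 of the undifferentiated WT cells (differences −0.36 to −0.19, adjusted p 0.0710 to 0.235), and with centred arrays, quantile normalized arrays or the groups compared alone (adjusted p 0.0569 to 0.0722).

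Gbp3, a guanylate-binding protein of intracellular defence, moved in a different way. It read 6.49, 6.65 and 6.59 in differentiated D1D2KO cells, against 7.58, 7.57 and 7.36 in differentiated WT cells. Undifferentiated cells read 6.77, 6.60 and 7.03 in D1D2KO, against 6.76, 6.53 and 6.74 in WT. Only the differentiated WT cells were high, at 1.91-fold the level of differentiated D1D2KO cells (−0.93, SE 0.11, adjusted p = 3.28e-05). Gbp3 rose by 0.83 with differentiation in WT cells, and its −0.23 in D1D2KO cells did not pass the test (adjusted p = 0.117). Mx2, a dynamin-like GTPase, read 3.49, 4.24 and 3.83 in differentiated D1D2KO cells, against 4.88, 5.02 and 4.45 in differentiated WT cells. These signals are low, several under the lower quartile of the arrays, and Mx2 was 1.91-fold lower in D1D2KO (−0.93, SE 0.18, adjusted p = 0.00292). In undifferentiated cells Mx2 read 3.96, 4.02 and 4.45 in D1D2KO, against 4.17, 3.80 and 4.02 in WT, which overlapped. It rose by 0.79 with differentiation in WT cells. Mx1, its nuclear relative, showed differences from −0.24 to 0.24 and passed the test in no comparison.

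The membrane proteins split between genes that were lower in differentiated D1D2KO cells and Ifi27, which was not. Ifi27, a small hydrophobic membrane protein, read 10.48, 10.39 and 10.25 in differentiated D1D2KO cells, against 8.77, 8.84 and 8.89 in undifferentiated D1D2KO cells. In WT cells it read 10.29, 10.39 and 10.37 differentiated, against 8.83, 8.83 and 9.03 undifferentiated. Ifi27 therefore followed the state, with a rise of 1.54 in D1D2KO (adjusted p = 2.13e-10) and of 1.45 in WT cells (adjusted p = 7.18e-10), and was the only gene of the 40 with a response above that of WT, by 0.09 (95% interval −0.16 to 0.35). Bst2, or tetherin, which holds budding virions at the cell surface, was 1.58-fold lower in differentiated D1D2KO cells (−0.66, SE 0.09, adjusted p = 0.000164). Bst2 fell by 0.75 with differentiation in D1D2KO cells, and its −0.21 in WT cells did not pass the test (adjusted p = 0.0754). Ifitm3, which blocks fusion of entering viruses, was lower by −0.56 (SE 0.09, adjusted p = 0.000846) in differentiated D1D2KO cells and fell by 0.49 with differentiation in D1D2KO cells, with a difference of −0.01 in WT cells.

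In the ISG15 and ubiquitin group 3 of 4 genes were lower in differentiated D1D2KO cells. Usp18, the protease that removes ISG15 and dampens receptor signalling, read 5.77, 5.61 and 5.70 in differentiated D1D2KO cells, against 6.42, 6.87 and 6.17 in differentiated WT cells. All WT samples were above all D1D2KO samples, and Usp18 was 1.74-fold lower in D1D2KO (−0.80, SE 0.15, adjusted p = 0.00324). In undifferentiated cells Usp18 read 5.71, 5.79 and 6.13 in D1D2KO, against 6.18, 5.75 and 5.83 in WT, with overlap. Differentiation raised Usp18 by 0.57 in WT cells (adjusted p = 0.00788), though replicate 3 of the differentiated WT cells lay just below the highest undifferentiated one. Herc6, the main ISG15 ligase in the mouse, was lower by −0.76 in differentiated D1D2KO cells and fell by 0.66 with differentiation in D1D2KO. Trim25, a ubiquitin ligase of the RIG-I pathway, rose by 0.46 with differentiation in WT cells and was lower by −0.33 in differentiated D1D2KO cells. That call ended without replicate 3 of the differentiated D1D2KO cells (adjusted p = 0.0740) or replicate 1 or 2 of the differentiated WT cells (adjusted p 0.0542 and 0.0886), and with quantile normalized arrays (−0.25, adjusted p = 0.0597) or array weights (−0.24, adjusted p = 0.0694). Uba7, the enzyme that activates ISG15, differed by −0.19 between the differentiated genotypes and did not pass the test (adjusted p = 0.163). It fell by 0.25 with differentiation in D1D2KO cells at an adjusted p of 0.0464, a call that 8 of the 12 single-sample omissions ended, all but replicate 1 of differentiated D1D2KO, replicate 2 of undifferentiated D1D2KO and replicates 1 and 2 of differentiated WT cells (adjusted p 0.0535 to 0.188). Centred or quantile normalized arrays ended it too (adjusted p = 0.0912 and 0.0715), as did a fit of the groups compared alone (adjusted p = 0.0792).

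All 4 genes of the PARP group were lower in differentiated D1D2KO cells. Parp14, an ADP-ribosyltransferase active in interferon signalling, read 6.66, 6.56 and 6.70 in differentiated D1D2KO cells, against 7.27, 7.15 and 6.80 in differentiated WT cells. Its undifferentiated values were 7.20, 7.16 and 7.57 in D1D2KO, against 7.43, 7.17 and 7.42 in WT. The differentiated D1D2KO samples were the lowest of all 12, and Parp14 fell by 0.67 with differentiation in D1D2KO cells (adjusted p = 0.000384), while its −0.26 in WT cells did not pass the test (adjusted p = 0.128). Between the differentiated genotypes Parp14 differed by −0.44 (adjusted p = 0.0329), a call that ended without any 1 of the differentiated D1D2KO cells or without replicate 1 or 2 of the differentiated WT cells (differences −0.47 to −0.34, adjusted p 0.0567 to 0.113), and with quantile normalized arrays (adjusted p = 0.0799). Parp9 and its ligase partner Dtx3l, which form a complex, were lower by −0.51 and −0.38 in differentiated D1D2KO cells. With differentiation Parp9 rose by 0.33 in WT cells and Dtx3l fell by 0.34 in D1D2KO cells. Parp12, an ADP-ribosyltransferase that restrains translation, was lower by −0.38 in differentiated D1D2KO cells and fell by 0.55 with differentiation in D1D2KO. The Parp12 call between genotypes ended without replicate 2 or 3 of the differentiated D1D2KO cells or replicate 2 of the differentiated WT cells (adjusted p 0.0762 to 0.148), and with quantile normalized arrays (adjusted p = 0.0594).

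Of the antigen processing genes 2 of 3 were lower in differentiated D1D2KO cells, by small amounts. Psmb9, an immunoproteasome subunit, read 6.76, 6.89 and 6.81 in differentiated D1D2KO cells, against 7.18, 7.0 and 7.01 in differentiated WT cells. The groups did not overlap, yet the difference of −0.24 did not pass the test (adjusted p = 0.0584). Undifferentiated cells read 6.84, 6.65 and 6.75 in D1D2KO, against 6.63, 6.69 and 6.71 in WT. Psmb9 rose by 0.39 with differentiation in WT cells (adjusted p = 0.00125), and its 0.07 in D1D2KO cells did not pass (adjusted p = 0.539). Psmb8, another such subunit, and Tap1, a subunit of the peptide transporter, were lower by −0.35 and −0.32 in differentiated D1D2KO cells (adjusted p = 0.0409 and 0.0235). The Psmb8 call ended in 7 of the 12 single-sample omissions, all but replicate 1 of differentiated D1D2KO, replicate 3 of undifferentiated D1D2KO, replicate 3 of differentiated WT and replicates 2 and 3 of undifferentiated WT cells (adjusted p 0.0514 to 0.176), and with the replicate number as a block (adjusted p = 0.0519). The Tap1 call ended without replicate 2 or 3 of the differentiated D1D2KO cells or replicate 2 of the differentiated WT cells (adjusted p 0.0566 to 0.0974). Tap1 also rose by 0.28 with differentiation in WT cells, which did not pass without replicate 2 of the differentiated WT cells (0.21, adjusted p = 0.0821) or replicate 1 of the undifferentiated WT cells (0.24, adjusted p = 0.0854).

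The 4 remaining genes were all lower in differentiated D1D2KO cells. Rtp4, a chaperone that brings receptors to the cell surface, read 6.88, 7.03 and 7.36 in differentiated D1D2KO cells, against 8.07, 8.55 and 7.61 in differentiated WT cells. The values spread widely in both groups without overlap, and Rtp4 was 1.98-fold lower in D1D2KO (−0.99, SE 0.19, adjusted p = 0.00361). Undifferentiated cells read 7.02, 7.08 and 7.51 in D1D2KO, against 7.28, 6.93 and 7.34 in WT. Differentiated WT cells alone were high, and Rtp4 rose by 0.89 with differentiation in WT cells (adjusted p = 0.00153), while its −0.11 in D1D2KO cells did not pass (adjusted p = 0.716). Lgals3bp, a secreted glycoprotein that binds galectins, read 10.10, 10.07 and 9.65 in differentiated D1D2KO cells, against 10.60, 10.36 and 10.41 in differentiated WT cells. In undifferentiated cells it read 8.96, 8.93 and 9.16 in D1D2KO, against 9.11, 9.0 and 8.96 in WT. Lgals3bp thus rose with differentiation in both genotypes, by 0.92 in D1D2KO and 1.43 in WT cells, and was 1.43-fold lower in differentiated D1D2KO cells (−0.52, adjusted p = 0.00756). Xaf1, a promoter of apoptosis, and Ifi35, a leucine zipper protein that pairs with Nmi, were lower by −0.66 and −0.46 in differentiated D1D2KO cells. In D1D2KO differentiation Xaf1 fell by 0.39 and Ifi35 by 0.30. The Xaf1 call ended with the replicate number as a block (adjusted p = 0.0560), with centred arrays (adjusted p = 0.0638) and without replicate 1 or 2 of the differentiated D1D2KO, 2 or 3 of the undifferentiated D1D2KO or 1 of the undifferentiated WT cells (adjusted p 0.0541 to 0.178). The Ifi35 call ended without replicate 2 or 3 of the differentiated or 1 or 3 of the undifferentiated D1D2KO cells (adjusted p 0.0586 to 0.120).

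**Figure D3:**
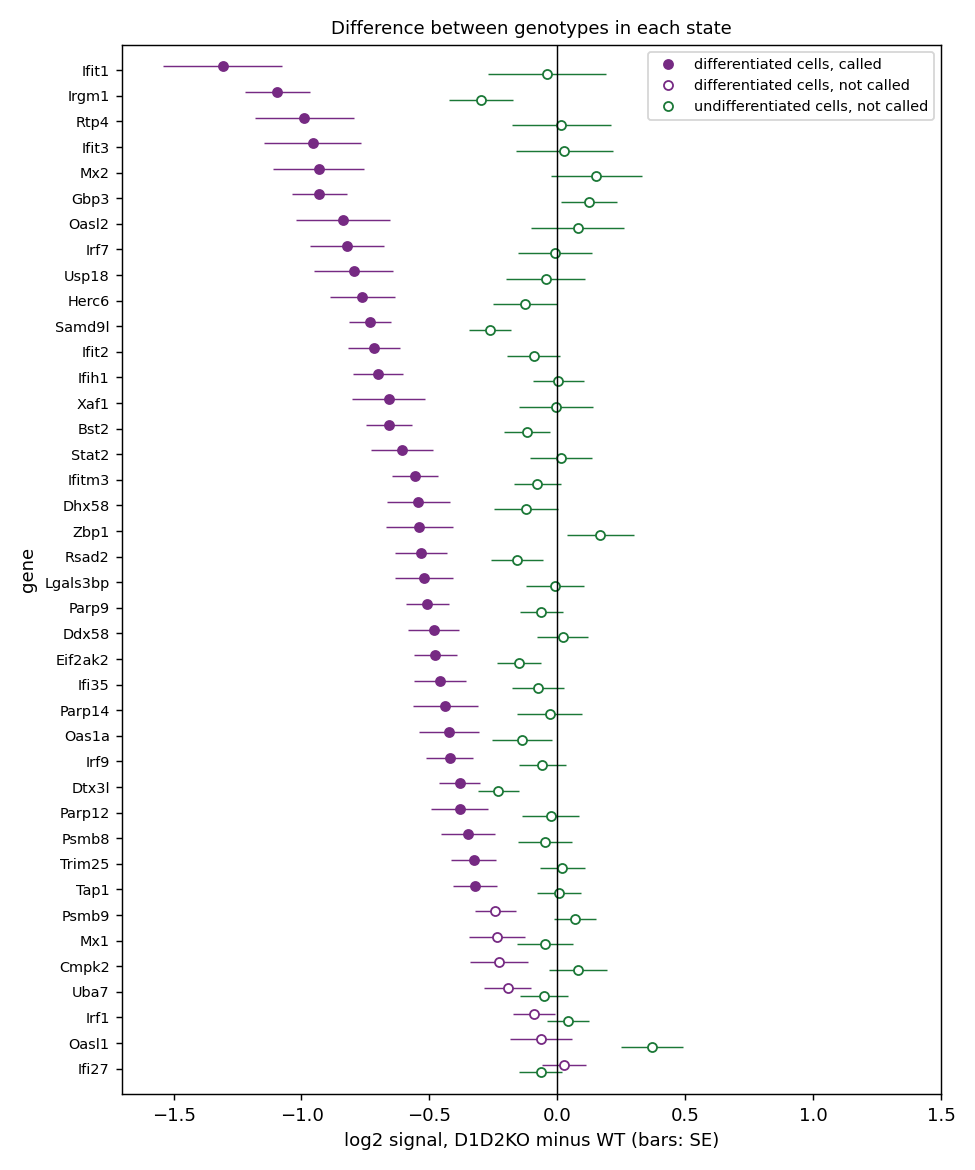
Difference in log2 signal between D1D2KO and WT cells for each of the 40 genes, in differentiated and in undifferentiated cells, with bars of 1 SE and filled points for adjusted p under 0.05. In differentiated cells 33 points are filled and lie between −1.31 and −0.32, whereas in undifferentiated cells all 40 are open and lie between −0.30 and 0.37.

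In undifferentiated cells 0 of the 40 genes passed the test between genotypes. The median difference over the 40 genes was −0.03, and the differences ran from −0.30 for Irgm1 to 0.37 for Oasl1. At an unadjusted p under 0.05, 1 gene was higher, Oasl1, and 3 were lower, Irgm1, Samd9l and Dtx3l, where 16.7% and 11% of all genes were higher and lower at that threshold. Their differences were 0.37 for Oasl1 (95% interval 0.12 to 0.63), −0.26 for Samd9l (−0.44 to −0.09) and −0.23 for Dtx3l (−0.40 to −0.06). For Ifit1 the interval, −0.53 to 0.45, still holds a shift of 0.4 in either direction, so an absent call does not show equal levels.

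Differentiation itself moved the genes in unlike ways within each genotype. In D1D2KO cells 2 of the 40 rose and 20 fell, where 15.4% of all genes rose and 21.2% fell, and the median difference was −0.24. In WT cells 14 rose and 3 fell, where 14.7% of all genes rose and 19.4% fell, and the median was 0.18. The 2 comparisons share no sample. Ifi27 and Lgals3bp rose in both, as did 11% of all genes, and Ifit2, Samd9l and Irgm1 fell in both, as did 16.5% of all genes. The 12 genes that rose in WT cells and were not called in D1D2KO cells were Ifih1, Zbp1, Irf7, Oasl1, Mx2, Gbp3, Usp18, Trim25, Parp9, Psmb9, Tap1 and Rtp4. The 17 that fell in D1D2KO cells and were not called in WT cells were Ddx58, Eif2ak2, Irf9, Irf1, Stat2, Ifit1, Ifit3, Oasl2, Ifitm3, Bst2, Uba7, Herc6, Parp12, Parp14, Dtx3l, Ifi35 and Xaf1. The other 6, Dhx58, Oas1a, Rsad2, Cmpk2, Mx1 and Psmb8, were called in neither, and no gene rose in one genotype and fell in the other. A call in one genotype and not in the other does not show that the responses differ.

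Comparing the 2 responses directly called fewer genes. Of the 40, 6 had a lower response in D1D2KO than in WT cells and 0 a higher one, where 0.712% and 0.747% of all genes did. Gbp3 differed most clearly, by −1.05 (SE 0.15, adjusted p = 0.00235), followed in size of p by Ifih1 at −0.71 (SE 0.14, adjusted p = 0.0160). Both calls held under every alternative tried for them, at adjusted p of up to 0.00947 for Gbp3. For Ifih1 the highest was 0.04997, only just under the threshold. Mx2 differed by −1.08 (adjusted p = 0.0421), Irgm1 by −0.80 (adjusted p = 0.0353), Ifit2 by −0.62 (adjusted p = 0.0421) and Bst2 by −0.54 (adjusted p = 0.0427). Gbp3, Ifih1 and Mx2 rose in WT cells only, whereas Irgm1 and Ifit2 fell in both genotypes and further in D1D2KO, and Bst2 fell in D1D2KO only by these tests. Without the test's threshold, 39 of the 40 responses were lower in D1D2KO, against 52.4% of all genes, and the median difference was −0.46. At an unadjusted p under 0.05, 32 of the 40 genes were lower, against 5.85% of all genes. Ifit1 (−1.27), Rtp4 (−1.0) and Ifit3 (−0.98) had differences as large as those called, with standard errors of 0.33, 0.27 and 0.27 and adjusted p of 0.0692, 0.0895 and 0.0865.

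Single samples moved the calls of Mx2, Irgm1, Ifit2 and Bst2. The Mx2 call ended in 10 of the 12 single-sample omissions, all but replicate 2 of differentiated D1D2KO and replicate 3 of differentiated WT cells (adjusted p 0.0541 to 0.124). For Bst2 it ended in 10, all but replicate 1 of undifferentiated D1D2KO and replicate 3 of differentiated WT cells (adjusted p 0.0556 to 0.133). For Irgm1 it ended in 9, all but replicate 3 of differentiated D1D2KO, replicate 1 of undifferentiated D1D2KO and replicate 3 of differentiated WT cells (adjusted p 0.0535 to 0.0997). For Ifit2 it ended in 8, all but replicate 2 of differentiated D1D2KO, replicate 1 of undifferentiated D1D2KO, replicate 3 of differentiated WT and replicate 3 of undifferentiated WT cells (adjusted p 0.0542 to 0.124). Their differences kept their sign in each of these omissions, between −1.18 and −0.47. Array weights also ended the Mx2 call and brought its difference to −0.72 (adjusted p = 0.155), and the replicate block ended those of Mx2, Ifit2 and Bst2 (adjusted p 0.0628 to 0.0637).

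**Figure D4:**
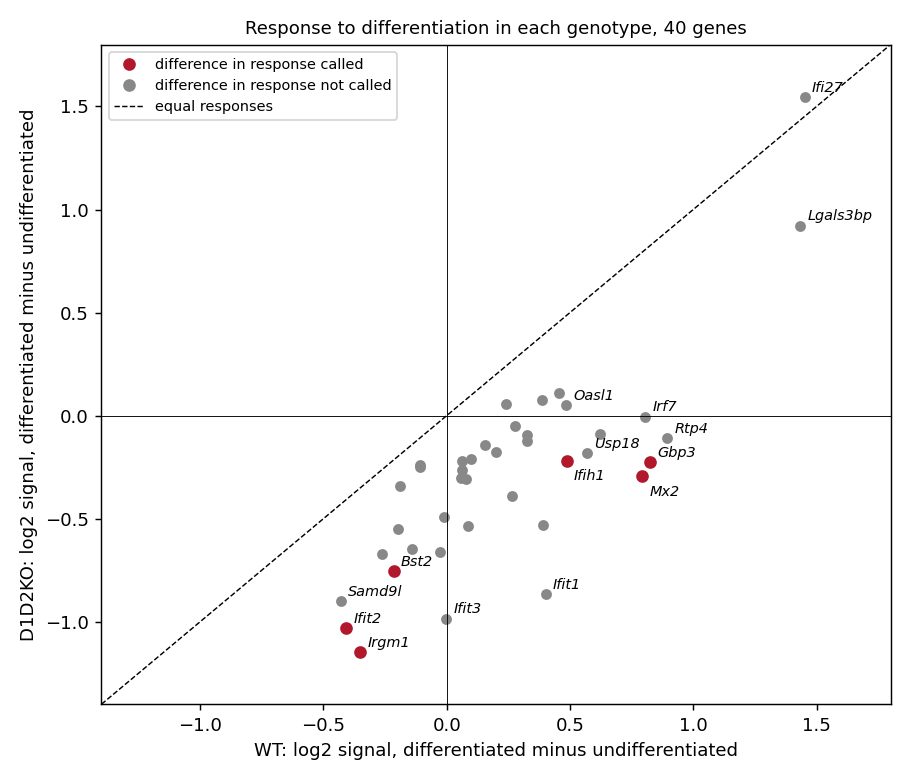
Response to differentiation of each of the 40 genes, as differentiated minus undifferentiated log2 signal, in WT cells on the horizontal axis and in D1D2KO cells on the vertical axis. Points on the dashed line would have equal responses. All points but Ifi27 lie below it, and the 6 with a called difference are red.

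The genes also varied together between samples of 1 group. Their mean log2 signal was 6.44, 6.46 and 6.46 in differentiated D1D2KO cells and 6.66, 6.66 and 6.87 in undifferentiated D1D2KO cells. It was 7.06, 7.15 and 6.81 in differentiated WT cells and 6.78, 6.70 and 6.81 in undifferentiated WT cells. Replicate 3 of differentiated WT cells thus lay near the undifferentiated cells. It was the lowest of its group for 35 of the 40 genes, where it was lowest for 36.2% of all genes, and replicate 2 was the highest for 26 of the 40, where it was highest for 37.7% of all genes. Replicate 3 of undifferentiated D1D2KO cells was the highest of its group for 31 of the 40, against 35.8% of all genes. The median SD between replicates was 0.13 in differentiated D1D2KO cells, 0.13 in undifferentiated D1D2KO cells, 0.17 in differentiated WT cells and 0.10 in undifferentiated WT cells, against 0.11, 0.08, 0.12 and 0.09 over all genes. Without replicate 3 of the differentiated WT cells, 19 of the 40 genes had a lower response in D1D2KO, in place of 6, and 2.25% of all genes differed in either direction.

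Of genes around the pathway, 74 of 88 listed were measured. The mean signal of the 8 interferon genes measured was 5.01 to 5.13 in differentiated D1D2KO and 4.83 to 4.89 in differentiated WT cells, and Ifna5 and Ifnl2 were above the median of every array. In differentiated cells 3 of them, chosen after their values were seen, were higher in D1D2KO. Ifnb1 read 4.17, 4.23 and 4.20 in D1D2KO, against 3.78, 3.77 and 3.89 in WT cells (0.39, adjusted p = 0.00697). All 3 WT values and those of D1D2KO replicates 1 and 3 lay under the lower quartile of their arrays. Such signal cannot be told from background here. That quartile was 4.19 to 4.26 on the differentiated D1D2KO arrays and 4.13 to 4.17 on the differentiated WT arrays. Ifna5 read 7.35, 7.44 and 7.68 in D1D2KO, against 7.20, 7.17 and 6.99 in WT cells, without overlap (0.37), and Ifne was higher by 0.41. In undifferentiated cells Ifnl2, a type III interferon, was higher by 0.50.

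Receptors and kinases carry the signal of secreted interferon into the cell. Of 10 receptors, kinases and STATs measured, only Jak2, a kinase of the interferon gamma receptor, was called in differentiated cells. Jak2 read 8.19, 8.45 and 8.37 in D1D2KO, against 8.85, 9.12 and 8.84 in WT cells, without overlap (−0.60, SE 0.09, adjusted p = 0.000437). The type I receptor chains differed by −0.15 for Ifnar1 and −0.19 for Ifnar2, and the gamma receptor chains by 0.06 for Ifngr1 and −0.19 for Ifngr2, none past the test. Stat3 differed by −0.25 at an adjusted p of 0.0508, and Tyk2 and Jak1 by −0.08 and −0.11. With differentiation Ifnar1, Ifngr2 and Il10rb fell and Ifngr1 rose in each genotype, Ifnar1 by −0.47 in D1D2KO and −0.33 in WT cells.

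Interferon-stimulated genes outside the 41 were read as well. Of 39 measured, 14 were lower and 2 higher in differentiated D1D2KO cells, with a median of −0.21, and 2 were lower and 1 higher in undifferentiated cells. Trim30a, a ligase that restrains innate signalling, was lower by −1.06 in differentiated D1D2KO cells (adjusted p = 9.21e-05). The DNA-binding proteins Ifi205 and Ifi203 were lower by −1.04 and −0.69 in differentiated and by −0.63 and −0.32 in undifferentiated D1D2KO cells. The GTPases Iigp1 and Gbp7, relatives of Irgm1 and Gbp3, differed in their response by −0.77 and −0.66, and Lgals9, a galectin, by −0.54 (adjusted p = 0.0355, 0.0475 and 0.0356). Iigp1 rose by 0.61 with differentiation in D1D2KO and by 1.37 in WT cells. Of the inhibitors, including Socs1 and Socs3, 0 of 6 were called between genotypes in either state, and of the upstream adaptors and sensors 1 was higher and 1 lower of 11 in differentiated cells. Tlr7, a sensor of single-stranded RNA in endosomes, fell by 1.55 with differentiation in D1D2KO and by 1.70 in WT cells.

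Several of the genes are neighbours on their chromosome. On chromosome 19 Ifit2 and Ifit3 are adjacent among the genes tested, with 2 other tested genes between Ifit3 and Ifit1. Dtx3l lies next to both Parp9 and Parp14 on chromosome 16, where 1 tested gene lies between Mx1 and Mx2. Psmb9, Tap1 and Psmb8 follow each other on chromosome 17, Oasl1 and Oasl2 are adjacent on chromosome 5, and Cmpk2 and Rsad2 on chromosome 12. Neighbours did not always share a call, since Oasl2 was lower in differentiated D1D2KO cells and Oasl1 was not called. The same held for Rsad2 and Cmpk2, though the signals of Cmpk2 were low. The 40 genes lie on 15 chromosomes, so the differences were not confined to 1 of them. Dgat2 lies on chromosome 7, as do Irf7, Ifitm3 and Trim30a, with 663, 650 and 163 tested genes in between.

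Markers of other cells moved with the state and, in part, with the genotype. Of 16 macrophage markers 15 fell with differentiation in each genotype, with medians of −1.12 in D1D2KO and −1.03 in WT cells. Their mean signal was 7.84 to 8.05 in differentiated D1D2KO, 9.12 to 9.16 in undifferentiated D1D2KO, 7.95 to 8.24 in differentiated WT and 9.13 to 9.22 in undifferentiated WT cells, and every one of these markers was above the lower quartile of every array. Between the differentiated genotypes 2 of the 16 were lower, Itgam by −0.68 and Fcgr1 by −0.37, with a median of −0.09, and Itgam was also lower by −0.63 in undifferentiated D1D2KO cells. Markers of lymphocytes, natural killer cells and plasmacytoid dendritic cells were read as 1 list. They averaged 3.99 to 4.07 in differentiated D1D2KO and 3.67 to 3.92 in differentiated WT cells, under the lower quartile of every array. Of these 8 markers 2 were higher in D1D2KO, Cd8a by 0.47 and Siglech by 0.36, and both were above that quartile on every array. Endothelial markers averaged 4.90 to 4.99 in differentiated D1D2KO and 4.77 to 4.90 in differentiated WT cells, and 2 of the 7 were higher in D1D2KO, Cldn5 by 0.36 and Tek by 0.33.

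Adipocyte and fibroblast markers differed between the differentiated genotypes too. Of 11 adipocyte markers 7 were higher in differentiated D1D2KO cells, with a median of 0.37, among them Lep by 1.09 and Cidec by 0.62. Of 10 fibroblast markers 5 were lower, with a median of −0.26, among them Thy1 by −0.74 and Pdgfra by −0.52. The fibroblast markers averaged 10.16 to 10.29 in differentiated D1D2KO cells, against 10.55 to 10.60 in differentiated WT cells. The part of these cell markers in the differences of the interferon-stimulated genes was not tested.

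**Figure D5:**
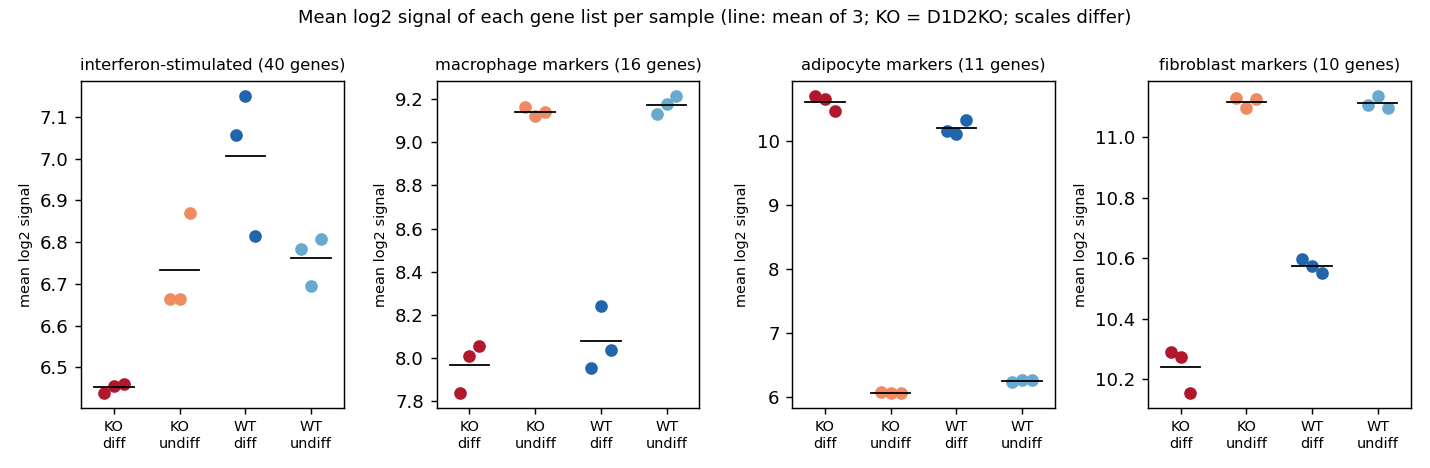
Mean log2 signal per sample of the 40 interferon-stimulated genes and of the macrophage, adipocyte and fibroblast markers, with a line at each group's mean and a different scale in each panel. The interferon-stimulated genes are lowest in differentiated D1D2KO cells (6.44 to 6.46), while the macrophage markers separate the states and the adipocyte and fibroblast markers separate the states and, less widely, the differentiated genotypes.

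The presence of the response element core can be set beside the calls as a description. Among genes with a promoter window, 12 of the 26 that were lower in differentiated D1D2KO cells held it, and 0 of the 5 that were not called. These 5 are too few to read a relation between core and call, which was not tested. The 12 were Ddx58, Eif2ak2, Ifih1, Stat2, Ifit1, Ifit3, Oas1a, Rsad2, Gbp3, Irgm1, Bst2 and Ifitm3. They include genes that rose in WT cells, such as Gbp3 and Ifih1, and genes that fell in D1D2KO cells, such as Irgm1 and Bst2.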

How the data were processed

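Total RNA of 12 samples was extracted with Trizol, labelled with biotin and hybridised to single-colour arrays, per the labels' protocols. The values are log2 signals as the authors deposited them, in 1 table of 35556 probe sets. Their background correction and normalization are not stated in the sources used, and the base was read from the values, whose maximum of 14.17 exceeds the natural log of the scanner's 16-bit limit (11.09). Sorted columns differed by up to 0.533, so the columns do not share 1 distribution, and 0 columns were identical. Arrays give no read depth, and the number of samples limits the precision.

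Of the probe sets 21789 named 1 gene, 1621 several and 12146 none in the annotation, and 19856 of the 19938 gene IDs were found in RefSeq's gene table, which changed 0 symbols. Cross-hybridisation between related genes was not tested. A model of the 4 group means over all 12 samples was fitted with limma 3.58.1 (R 4.3.3) to the 19938 genes. The 5 comparisons were tested 2-sided, with empirical Bayes variances and Benjamini-Hochberg adjustment over all 19938 genes. A call is an adjusted p under 0.05, and intervals are 95% intervals of that fit. The procedure was tested on simulated data.

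The members and lists were chosen with earlier results of these data known. Values in every sample are given for up to 4 called members with the largest absolute difference in each comparison and for the member of each role with the largest called difference. The others are given by difference and count. Besides the receptors, kinases and STATs, only a selection of the genes of the pathway lists is named. Others with large differences, such as Ddx60, Slfn5 and Psme2 with differentiation, are not described. Lists were also read for interferon ligands, inhibitors, upstream adaptors and sensors, and other interferon-stimulated genes. Marker lists covered adipocytes, fibroblasts, macrophages, endothelium, and lymphocytes together with natural killer and plasmacytoid dendritic cells.

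Replicate numbers come from the titles. Equal-numbered differentiated and undifferentiated D1D2KO samples deviated together (correlations 0.101 to 0.176, against −0.147 to 0.05 for unequal numbers). In the other pairs of groups the correlations of equal and unequal numbers overlapped. The overlap was narrow for undifferentiated D1D2KO and WT samples (−0.01 to 0.18 for equal numbers, against −0.19 to 0.04). The main fit modelled no pairing, so its p-values are unpaired, and the replicate number entered only as a block in alternatives. Alternatives were centring on the median, quantile normalization, genes above the median mean signal, averaging the probe sets of a gene, the groups compared alone, trended and robust variances, array weights, the replicate block and leaving out each sample.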

Additional observations from a re-analysis of the deposited data

Results flagged for a closer look

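In 6 genes the response to differentiation differed between D1D2KO and WT cells by a test of the difference itself. On the log2 scale, as the D1D2KO response minus the WT response, the differences were −1.085 for Mx2, −1.0534 for Gbp3, −0.7967 for Irgm1, −0.7053 for Ifih1, −0.624 for Ifit2 and −0.54 for Bst2. The Gbp3 and Ifih1 calls held under every alternative run for them, that of Ifih1 only just (highest adjusted p 0.04997). Those of Mx2, Irgm1, Ifit2 and Bst2 each ended in 8 to 10 of the 12 single-sample omissions.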

How the results depend on the processing

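No called gene changed direction under any alternative. The median over the 40 genes kept its sign in 4 comparisons, and between undifferentiated genotypes it ran around 0, from −0.10 to 0.02. In differentiated cells 26 to 34 of the 40 genes were called between genotypes, against 33 as reported. Of those 33 calls, 25 held under every alternative, and Dhx58 ended only with array weights (−0.41, adjusted p = 0.0544). With differentiation 16 to 25 genes were called in D1D2KO cells, against 22, and 15 to 19 in WT cells, against 17. Between undifferentiated genotypes the count of 0 became 1 among genes above the median signal, 3 with the groups compared alone and 4 with array weights, where 8.84%, 13% and 21.2% of all genes were called in either direction, and ran from 0 to 1 without single samples. The count of differing responses, 6, became 15 among genes above the median signal, 11 with trended and robust variances and 3 with the replicate block, where 5.39%, 2.26% and 1.27% of all genes were called in either direction. Without single samples it ran from 2 to 19, with 19 without replicate 3 of differentiated WT cells. With the replicate block in all 12 samples the calls of Ifit2 (adjusted p = 0.0637), Mx2 (0.0628) and Bst2 (0.0637) ended for the response, and those of Xaf1 and Psmb8 as reported. A block fitted in the D1D2KO samples alone, chosen after seeing the data, called 22 genes and ended the call of Irf1. Fitting the groups compared alone ended the differentiated genotype calls of Zbp1, Oas1a, Trim25, Parp12, Parp14, Psmb8 and Tap1 (adjusted p 0.0508 to 0.105). The cause of these changes was not tested. Dim signals limit Mx1, Mx2 and Cmpk2, since values near background understate differences.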
